A study of Mus musculus with 18 samples.

Results

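A set of 10 genes of the TREM2 and lipid-associated macrophage programme, Trem2, Tyrobp, Gpnmb, Apoe, Lpl, Lgals3, Cd9, Itgax, Clec7a and Cst7, were followed in mouse pancreatic islets. They were taken by gene symbol, and all 10 were found among the 54186 symbols of the deposited table. RNA was sequenced from whole islets of 18 mice, 1 library per mouse and 6 per genotype, with 165 ± 6 islets per mouse and RIN values of 8.4 to 9.5 per the labels. All mice were 6 weeks old and on the FVB background. In hIAPP mice an added transgene made human islet amyloid polypeptide (IAPP), a hormone that beta cells secrete with insulin, and in rIAPP mice the transgene made the rodent form. The insulin II promoter drove either transgene, so that it was expressed in beta cells. The WT mice had no transgene. The human peptide aggregates readily and the rodent peptide does not. The 3 comparisons asked what the human transgene changed against WT and against a transgene for the rodent peptide, and what the rodent transgene changed against WT.

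TREM2 is a lipid-sensing receptor on the surface of macrophages that signals through the adaptor TYROBP (DAP12) and the kinase SYK. In tissues where lipid or debris accumulates, macrophages that depend on TREM2 take up lipid and express lysosomal, lipid-handling and adhesion genes together, among them those listed here. Such cells have been described in obese fat tissue, atherosclerotic plaques, fatty liver and around amyloid plaques in brain. Islets hold resident macrophages, which lie next to beta cells and can take up material that these release. Apoe, Lpl and Cd9 are also transcribed by cells that are not macrophages.

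RefSeq (GRCm38.p6) promoter windows, from 250 bases before to 50 after a start site, were on hand for 8 of the 10 genes, in 11 windows. None was on hand for Tyrobp and Lpl. Both strands were searched for 4 motifs: TGANTCA (like the AP-1 site, with any middle base), GAGGAAG (core of the PU.1 site), CACGTG (E-box) and CATGTG (E-box variant). TGANTCA was present in windows of 4 of the 8 genes, and in 7.81% of all 32851 windows. Counts of the 8 are per gene, and Apoe and Clec7a had more than 1 window, while the shares are per window. GAGGAAG was present in 1 of the 8 (Trem2, on the other strand), against 13.6% of all windows. CACGTG was present in 0 of the 8, against 7.15% of all windows. CATGTG was present in 1 of the 8 (Cd9, on the other strand), against 14.2% of all windows. No match overlapped another. The 4 windows that hold TGANTCA are shown. Their genes were all higher in hIAPP islets, but so were Apoe, Lgals3 and Clec7a, whose windows held none of the motifs. All 4 windows shown lie on the plus strand, and capitals mark the matches. The middle base of the match was C in Gpnmb, G in Itgax, A in Trem2 and T in Cst7. The Trem2 window is chr17:48346151-48346450, with the PU.1 core (read as CTTCCTC) before TGAATCA, which begins 9 bases before the start site. The Gpnmb window is chr6:49036268-49036567 (match from base 9 after the start site). The Itgax window is chr7:128129300-128129599 (56 bases before it), and the Cst7 window is chr2:150570165-150570464 (6 bases before it). A match describes these letters only, and no binding was measured.
Trem2: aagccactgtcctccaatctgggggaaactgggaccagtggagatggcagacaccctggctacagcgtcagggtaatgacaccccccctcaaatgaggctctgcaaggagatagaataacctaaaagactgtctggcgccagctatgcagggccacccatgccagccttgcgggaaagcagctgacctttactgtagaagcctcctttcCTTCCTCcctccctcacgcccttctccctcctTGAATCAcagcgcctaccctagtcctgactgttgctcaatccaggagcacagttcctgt
Gpnmb: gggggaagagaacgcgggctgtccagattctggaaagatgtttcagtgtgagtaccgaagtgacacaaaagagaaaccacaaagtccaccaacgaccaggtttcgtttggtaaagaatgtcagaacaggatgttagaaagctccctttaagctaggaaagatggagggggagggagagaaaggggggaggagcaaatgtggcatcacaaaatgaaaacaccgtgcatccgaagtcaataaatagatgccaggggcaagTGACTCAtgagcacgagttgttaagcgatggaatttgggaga
Itgax: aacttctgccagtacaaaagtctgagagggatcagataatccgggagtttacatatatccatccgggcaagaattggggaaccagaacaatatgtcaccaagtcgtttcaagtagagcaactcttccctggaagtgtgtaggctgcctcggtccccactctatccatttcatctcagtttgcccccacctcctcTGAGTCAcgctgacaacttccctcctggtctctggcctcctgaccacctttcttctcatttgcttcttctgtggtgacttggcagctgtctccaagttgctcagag
Cst7: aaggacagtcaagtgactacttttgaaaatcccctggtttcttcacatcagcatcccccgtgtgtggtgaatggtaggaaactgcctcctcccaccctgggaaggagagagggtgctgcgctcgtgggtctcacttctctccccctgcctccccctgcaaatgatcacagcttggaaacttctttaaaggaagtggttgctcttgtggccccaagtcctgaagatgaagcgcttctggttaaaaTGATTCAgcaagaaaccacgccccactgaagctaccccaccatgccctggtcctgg

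The libraries held 128 M counts on average in hIAPP (range 110 to 142), 138 M in rIAPP (128 to 158) and 156 M in WT (144 to 166). The insulin genes Ins1 and Ins2 took 4.71% to 9.63% of counts in hIAPP, 4.18% to 6.21% in rIAPP and 8.92% to 10.2% in WT. Acinar genes, which encode digestive enzymes of the exocrine pancreas and their regulators, took 0.24% to 1.89% in hIAPP, 0.44% to 1.8% in rIAPP and 0.0901% to 0.378% in WT. The libraries hIAPP 5 and hIAPP 6 stood apart from the other 4. In hIAPP 5 the acinar share was 1.16% and the insulin share 4.71%, and in hIAPP 6 they were 1.89% and 6.05%. Fold changes without these libraries are given with Gpnmb and Lgals3. For Trem2, Tyrobp, Apoe, Itgax and Clec7a the ratio of hIAPP to WT was smaller without hIAPP 5 and hIAPP 6. It was 5.29 in place of 6.47 for Trem2, 3.34 in place of 4.08 for Tyrobp and 3.04 in place of 3.35 for Apoe. It was 2.82 in place of 3.91 for Itgax and 3.56 in place of 4.55 for Clec7a. Each still had an edgeR adjusted p under 0.05. Some other results are also given without these libraries.

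Of the 10 genes, 8 were higher and 1, Lpl, was lower in hIAPP than in WT islets (edgeR, adjusted p under 0.05 over 20244 genes). Over all genes tested, 8.31% were called higher and 7.53% lower. All 10 genes passed the filter on low counts, Cst7 through its hIAPP libraries alone. A gene that passes in this way is likely to be called higher, so Cst7 adds little to the counts of genes given here and below. For 8 of the 10, all 6 hIAPP libraries lay above all 6 WT libraries, which 3.74% of all genes did. The median log2 fold change was 2.11 over the 10 genes and -0.01 over all genes. Against rIAPP the counts were also 8 higher and 1 lower, with 13.5% of all genes called higher and 14.1% lower. There the 6 hIAPP libraries lay above all 6 rIAPP libraries for 8 genes (6.52% of all genes) and below them for 1, Lpl (6.85% of all genes). The median was 2.20 over the 10 genes and -0.00 over all genes. The comparisons of hIAPP with WT and with rIAPP share the hIAPP libraries, so the 2 sets of values are not independent. In whole islets, more cells of a type and more RNA per cell cannot be told apart.

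**Figure D1:**
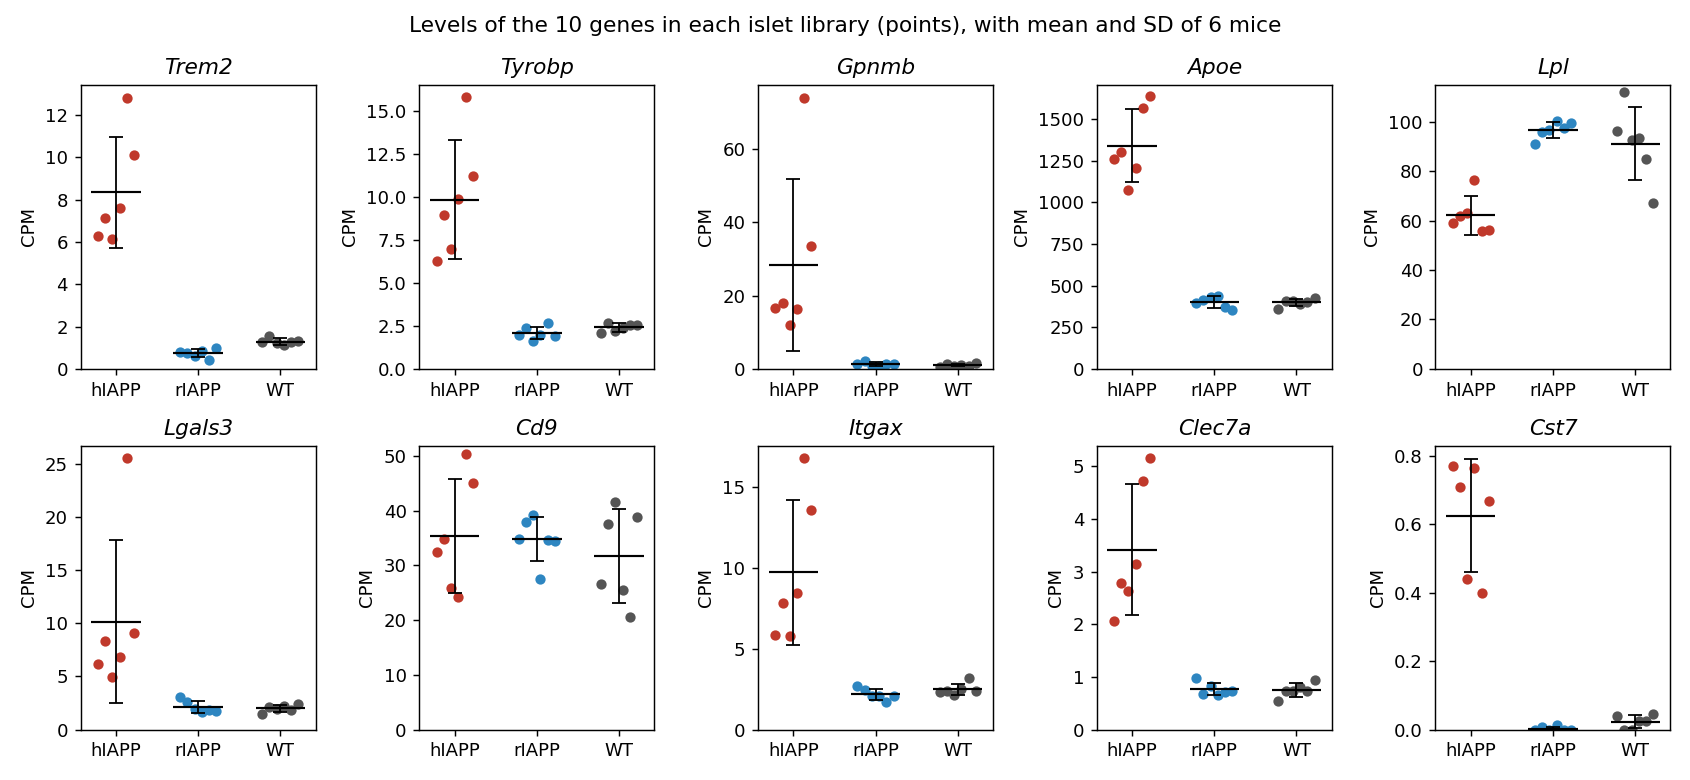
Levels of the 10 genes in counts scaled to library size (CPM, linear axes from 0) in each of 18 islet libraries, with points for mice, a line for the mean and bars for the SD of 6 mice per genotype. For Trem2, Tyrobp, Gpnmb, Apoe, Lgals3, Itgax, Clec7a and Cst7 every hIAPP point lies above every rIAPP and WT point, Lpl is lower in hIAPP, and the Cd9 points overlap.

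Levels are given as CPM, the counts of a gene scaled to the library total and its TMM factor. Trem2 (chr17:48346401-48354147 on GRCm38, plus strand) was 6.14, 7.37 and 12.8 CPM at its lowest, median and highest in hIAPP libraries. It was 0.44, 0.765 and 0.979 CPM in rIAPP libraries and 1.14, 1.25 and 1.57 CPM in WT libraries. The 3 genotypes did not overlap, with hIAPP highest and rIAPP lowest. The log2 fold change was 2.69 ± 0.19 (SE) for hIAPP against WT (edgeR adjusted p = 1.49e-08) and 3.50 ± 0.20 for hIAPP against rIAPP (edgeR adjusted p = 9.24e-11). As a ratio these were 6.47-fold and 11.3-fold.

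Tyrobp, the signalling adaptor of TREM2 and of other myeloid receptors (chr7:30413760-30417585, plus strand), was 6.3, 9.41 and 15.8 CPM in hIAPP libraries. It was 1.64, 1.98 and 2.69 CPM in rIAPP libraries and 2.08, 2.47 and 2.69 CPM in WT libraries. All hIAPP libraries were above the others, and rIAPP and WT overlapped. The log2 fold change was 2.03 ± 0.18 against WT (edgeR adjusted p = 2.93e-07) and 2.23 ± 0.18 against rIAPP (edgeR adjusted p = 1.09e-08). The ratio of Trem2 to Tyrobp CPM in a library was 0.772 to 0.996 in hIAPP, 0.163 to 0.505 in rIAPP and 0.479 to 0.605 in WT. The hIAPP ratios thus lay above all others, while rIAPP and WT overlapped. This ratio was chosen after the values were seen and was not tested.

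**Figure D2:**
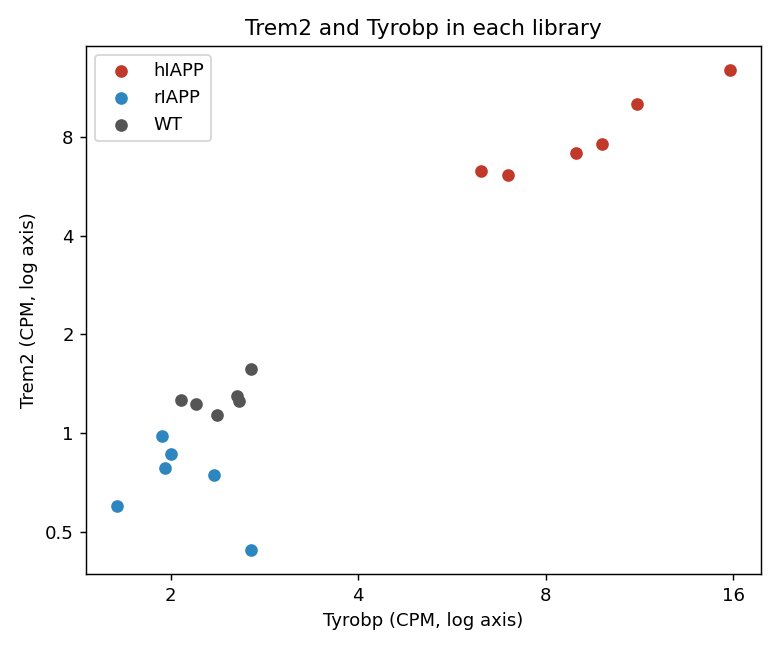
Trem2 against Tyrobp in each of 18 islet libraries, both in CPM on log axes, coloured by genotype with 1 point per mouse. The 6 hIAPP libraries lie apart at 6.14 to 12.8 CPM of Trem2, and at overlapping Tyrobp levels the rIAPP libraries (0.44 to 0.979 CPM of Trem2) lie below the WT libraries (1.14 to 1.57).

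Clec7a encodes Dectin-1, a receptor for fungal beta-glucans that signals through SYK (chr6:129461591-129472779, minus strand). It was 2.06, 2.97 and 5.16 CPM in hIAPP libraries, 0.662, 0.726 and 0.978 CPM in rIAPP libraries, and 0.549, 0.739 and 0.944 CPM in WT libraries. Its log2 fold change was 2.19 ± 0.20 against WT and 2.15 ± 0.20 against rIAPP (edgeR adjusted p = 5.72e-07 and 9.77e-08). Itgax, the CD11c integrin chain of dendritic cells and activated macrophages (chr7:128129547-128150657, plus strand), was 5.79, 8.15 and 16.8 CPM in hIAPP libraries. It was 1.72, 2.08 and 2.69 CPM in rIAPP libraries and 2.14, 2.38 and 3.19 CPM in WT libraries. Its log2 fold change was 1.97 ± 0.22 against WT and 2.16 ± 0.22 against rIAPP (edgeR adjusted p = 5.97e-06 and 3.41e-07). For both receptors the hIAPP libraries lay above all others, and rIAPP and WT overlapped.

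Apoe encodes apolipoprotein E, a lipid carrier and a ligand of TREM2 (chr7:19696109-19699188, minus strand). It had the highest level of the 10 genes, also per kilobase, at 1073, 1279 and 1640.2 CPM in hIAPP libraries, 355, 405 and 440.0 CPM in rIAPP libraries, and 361, 405 and 428 CPM in WT libraries. The log2 fold change was 1.75 ± 0.09 against WT and 1.74 ± 0.09 against rIAPP (edgeR adjusted p = 1.99e-10 and 3.04e-11). Its estimated counts, like those of Itgax, were fractional in all 18 libraries (more than 0.01 from a whole number), and the step that gave these fractions is not given in the sources used here.

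Lpl encodes lipoprotein lipase, which hydrolyses the triglycerides of lipoproteins and is also made by islet cells (chr8:68880491-68907448, plus strand). It moved against the 8 genes that were higher. It was 55.8, 60.4 and 76.6 CPM in hIAPP libraries, 91, 97.1 and 100.2 CPM in rIAPP libraries, and 67.1, 93 and 112 CPM in WT libraries. All hIAPP libraries were below all rIAPP libraries, while the highest hIAPP library (hIAPP 4) was above the lowest WT library. Its log2 fold change was -0.55 ± 0.09 against WT and -0.64 ± 0.09 against rIAPP (edgeR adjusted p = 0.000424 and 2.5e-05). Adipocytes, a strong source of Lpl, left little trace: 0 of 6 adipocyte markers passed the filter, and their summed level was 0.0169 to 0.0907 CPM in hIAPP, 0.00761 to 0.0791 in rIAPP and 0.0196 to 0.0669 in WT. Cfd was at 0 in every library. Of 8 beta cell markers, 5 were lower and 0 higher in hIAPP than in WT (edgeR), and 8 were higher in hIAPP than in rIAPP. Their summed level was 44602 to 96259.8 CPM in hIAPP, 40883 to 63335 in rIAPP and 99772 to 117631 in WT. Of 7 endothelial markers 2 were lower in hIAPP than in WT and all 7 lower than in rIAPP (median log2 fold change -0.14 and -0.53). The endothelial sum was 443 to 531 CPM in hIAPP, 625 to 737 in rIAPP and 519 to 570.3 in WT. Of 8 stellate and mesenchymal markers, 2 were lower and 2 higher in hIAPP than in rIAPP. The lower ones were Pdgfra and Dcn (log2 fold change -1.66 and -0.98, edgeR adjusted p = 3.79e-06 and 4.79e-05). Against WT, 6 of these 8 markers were higher in hIAPP and 0 lower. The part of these cells in the Lpl difference was not tested.

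Gpnmb encodes a transmembrane glycoprotein of lysosome-rich, lipid-laden macrophages (chr6:49036546-49070929, plus strand). It was 12, 17.3 and 73.9 CPM in hIAPP libraries, 0.82, 1.41 and 2.2 CPM in rIAPP libraries, and 0.609, 0.921 and 1.56 CPM in WT libraries. The hIAPP libraries were far above the others and differed widely among themselves, with hIAPP 5 at 73.9 CPM and hIAPP 6 at 33.6 CPM above a range of 12 to 18 CPM in the other 4. The log2 fold change was 4.78 ± 0.43 against WT and 4.39 ± 0.42 against rIAPP (edgeR adjusted p = 3.64e-07 and 1.15e-07). Without hIAPP 5 and hIAPP 6 it was 3.93 against WT and 3.53 against rIAPP (edgeR adjusted p = 3.98e-08 and 1.31e-08). With the acinar score of each library as a covariate it was 3.76 against WT (edgeR adjusted p = 5.89e-05).

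Lgals3, which encodes galectin-3, a lectin that binds damaged lysosomes (chr14:47367751-47386160, plus strand), was 4.92, 7.58 and 25.5 CPM in hIAPP libraries. It was 1.67, 1.91 and 3.09 CPM in rIAPP libraries and 1.51, 2.06 and 2.42 CPM in WT libraries. The hIAPP libraries did not overlap the others, and hIAPP 5 stood well above the rest of its group, the next of which was at 9.09 CPM. The log2 fold change was 2.34 ± 0.31 against WT and 2.23 ± 0.31 against rIAPP (edgeR adjusted p = 4.31e-05 and 1.58e-05). Without hIAPP 5 and hIAPP 6 it was 1.72 against WT and 1.60 against rIAPP (edgeR adjusted p = 6.53e-06 and 2.81e-06). With the acinar score as a covariate the Lgals3 value against WT was 1.61 (edgeR adjusted p = 0.0221), that of Itgax 1.35 (edgeR adjusted p = 0.00765) and that of Clec7a 1.59 (edgeR adjusted p = 0.000383).

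Cd9 encodes a tetraspanin of many cell types (chr6:125460266-125494791, minus strand). It was 24.2, 33.7 and 50.4 CPM in hIAPP libraries, 27.6, 34.7 and 39.3 CPM in rIAPP libraries, and 20.5, 32.1 and 41.6 CPM in WT libraries. The 3 genotypes overlapped. The log2 fold change was 0.16 (95% interval -0.22 to 0.53) for hIAPP against WT and 0.03 (-0.35 to 0.40) for hIAPP against rIAPP (edgeR adjusted p = 0.635 and 0.935). It shares 218 exon bases with Gm26728 on the other strand, and reads of the 2 genes cannot be told apart without strand, which is not given in the sources used here.

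Cst7 encodes cystatin F, an inhibitor of lysosomal cysteine proteases (chr2:150570415-150578944, plus strand). It was nearly absent outside hIAPP islets. Only the hIAPP libraries took it past the filter on low counts, which favours a call as higher there. Its counts were 49 to 115 in the hIAPP libraries and sum to 494, while they were 0 to 2 in the rIAPP libraries and sum to 3, and 0 to 6 in the WT libraries and sum to 20. In CPM it was 0.398, 0.689 and 0.771 in hIAPP libraries, at most 0.0126 in rIAPP libraries and at most 0.0457 in WT libraries. From the summed counts the level in hIAPP was 178 times that in rIAPP (95% counting interval 60.4 to 864) and 27.8 times that in WT (17.8 to 45.8), with intervals that cover counting error only. In the fit the log2 fold change was 4.79 ± 0.55 against WT and 7.48 ± 0.71 against rIAPP (edgeR adjusted p = 7.42e-06 and 1.09e-07). The value against rIAPP rests on few rIAPP counts and was 8.75 without rIAPP 4.

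**Figure D3:**
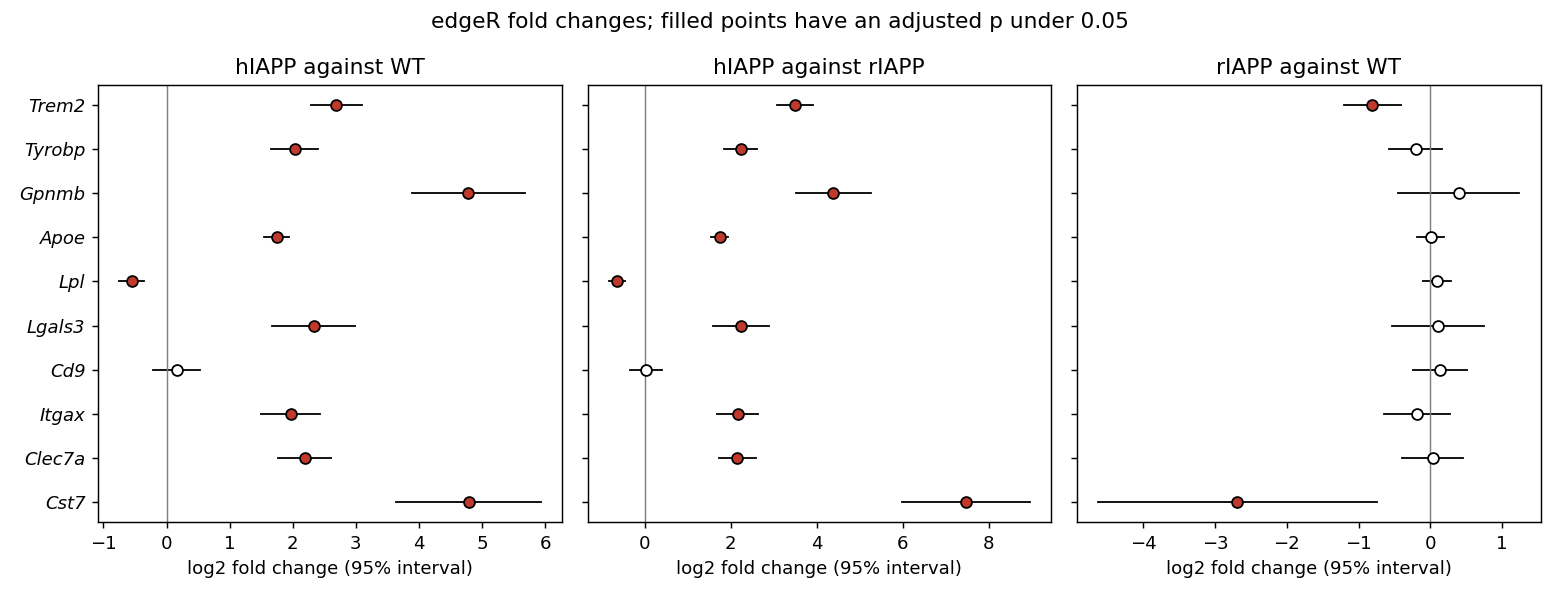
Log2 fold changes of the 10 genes from edgeR with 95% intervals, in 3 panels for hIAPP against WT, hIAPP against rIAPP and rIAPP against WT; filled points have an adjusted p under 0.05 and the panels have different x axes. In both hIAPP panels 8 genes lie above 0, Lpl lies below it and Cd9 does not pass, while in rIAPP against WT only Trem2 and Cst7 are filled, both below 0.

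In rIAPP islets Trem2 and Cst7 were lower than in WT islets. Of the 10 genes edgeR called 0 higher and 2 lower and did not call 8, against 14.1% of all genes called higher and 12.6% called lower. At an unadjusted p under 0.05, 0 were higher and 2 lower. DESeq2 called 0 higher and 2 lower, and limma-voom 0 higher and 1 lower. Trem2 was the 1 gene for which all 6 rIAPP libraries lay below all 6 WT libraries (6.75% of all genes), with a log2 fold change of -0.81 ± 0.19 (edgeR adjusted p = 0.0032). The change of Cst7 was -2.69 ± 0.93 (edgeR adjusted p = 0.0366), from 3 counts in rIAPP and 20 in WT (ratio 0.156, 95% counting interval 0.0297 to 0.527). This Cst7 call was lost when any 1 of rIAPP 1, 3, 5 and 6 or WT 1, 4, 5 and 6 was left out (edgeR adjusted p = 0.0542 to 0.0832), and the log2 value was -3.97 without rIAPP 4 and -1.22 with limma-voom (limma-voom adjusted p = 0.275). Of the other 8 genes, the narrowest intervals were those of Apoe (log2 fold change 0.01, 95% interval -0.18 to 0.19) and Lpl (0.09, -0.11 to 0.28). The widest was that of Gpnmb (0.40, -0.45 to 1.24). All 13 acinar markers were higher and all 8 beta cell markers lower in rIAPP than in WT (edgeR). With the acinar score as a covariate the Trem2 value was -1.40 (edgeR adjusted p = 0.0024). Acinar shares did not overlap between rIAPP (0.44% to 1.8%) and WT (0.0901% to 0.378%), so this covariate and genotype can hardly be told apart here.

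General macrophage markers moved with these genes. Of 10 markers that hold none of the members (Adgre1, Csf1r, C1qa, C1qb, C1qc, Fcgr3, Cx3cr1, Ptprc, Laptm5 and Spi1), all 10 were higher in hIAPP than in WT and than in rIAPP (edgeR; median log2 fold change 1.40 and 1.73). In rIAPP against WT 0 were higher and 5 lower. Their summed level was 176 to 277 CPM in hIAPP, 64.3 to 79.4 CPM in rIAPP and 104 to 119.8 CPM in WT. Csf1r, the receptor for the macrophage growth factor, was 17.5 to 24.4 CPM in hIAPP, 8.3 to 10.8 in rIAPP and 10.8 to 12.3 in WT. Adgre1, the F4/80 antigen, was 6.01 to 11.5 CPM in hIAPP, 1.93 to 2.81 in rIAPP and 3 to 3.8 in WT.

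To set the genes against macrophage RNA in the same library, each log2 level was taken relative to the mean log2 CPM of these 10 markers and tested with limma over all genes. That mean was 3.88 ± 0.38 in hIAPP, 2.27 ± 0.07 in rIAPP and 2.62 ± 0.10 in WT (SD, n = 6), so most genes fall on this scale when hIAPP is compared: the median difference over all genes was -1.27 against WT and -1.61 against rIAPP. Against WT, 8 of the 10 genes were higher and 2 lower on this scale, while 0.435% of all genes were called higher and 92.4% lower. Shares over all genes, here and below, are no yardstick for other macrophage genes, which were not set apart on this scale. The 10 markers themselves rose unequally against WT, from 0.56 for C1qa to 1.82 for Fcgr3 (edgeR log2 fold change), a range that holds the 1.75 of Apoe. Gpnmb was higher by 3.26 (limma adjusted p = 1.7e-10), Cst7 by 3.02 (limma adjusted p = 6.6e-07) and Trem2 by 1.38 (limma adjusted p = 4.56e-08). At 0 to 6 counts per library, Cst7 in WT lay near the floor set by the count added before taking logs. Its difference was 2.77 to 3.91 over the alternatives. The differences were 0.85 for Lgals3, 0.85 for Clec7a, 0.70 for Tyrobp, 0.60 for Itgax and 0.47 for Apoe (limma adjusted p = 6.44e-05 to 0.0021). For Itgax the hIAPP and WT libraries overlapped. Lpl (-1.80) and Cd9 (-1.11) were lower (limma adjusted p = 3.85e-09 and 2.88e-07), as most genes were, and Cd9 fell by less than the median gene.

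Against rIAPP, 6 of the 10 were higher and 2 lower on the same scale, while 0.445% of all genes were called higher and 95% lower. The lower genes were Lpl (-2.26) and Cd9 (-1.62), the second close to the median over all genes. Cst7 was higher by 3.58, Gpnmb by 2.53 and Trem2 by 1.86 (limma adjusted p = 2.53e-08, 2.62e-10 and 9.85e-11). At 0 to 2 counts per library, Cst7 in rIAPP lay at the floor set by the count added before taking logs. The size of its difference thus depends on that setting, and was 3.33 to 5.17 over the alternatives. Tyrobp was higher by 0.57, Clec7a by 0.46 and Itgax by 0.44 (limma adjusted p = 0.000672, 0.016 and 0.0116). Apoe (0.12, 95% interval -0.16 to 0.40) and Lgals3 (0.41, -0.02 to 0.84) did not pass (limma adjusted p = 0.391 and 0.0612). The smaller differences depended on the markers. With C1qa, C1qb and C1qc alone as denominator, Tyrobp (0.31), Clec7a (0.21) and Itgax (0.19) no longer passed, and with Ptprc, Laptm5 and Spi1 alone Apoe (0.43) and Lgals3 (0.72) did. Without hIAPP 5 and hIAPP 6, Itgax (0.29) did not pass and Apoe (0.22) did, and Lgals3 passed when any 1 of hIAPP 3, hIAPP 4, hIAPP 6 and rIAPP 1 was left out (0.47 to 0.53). Trem2, Gpnmb and Cst7 passed in every alternative that gave a value, against both genotypes.

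In rIAPP against WT, 4 of the 10 were higher and 1 lower relative to the markers, against 28.4% of all genes called higher, 2.47% called lower and a median over all genes of 0.34. Leaving out 1 library moved the number called to between 0 (without WT 5) and 6 (without hIAPP 5), and it was 3 without hIAPP 2 or hIAPP 4 and at most 3 without any 1 rIAPP or WT library. The lower one was Trem2, at -0.49 (limma adjusted p = 0.0363). With the C1q genes as denominator it was -0.14 (limma adjusted p = 0.46), and it did not pass when any 1 of rIAPP 2, 3 and 5 or WT 1, 2, 3 and 5 was left out (-0.35 to -0.49). C1qa itself was lower in rIAPP than in WT by 1.01 on the log2 scale (edgeR log2 fold change -1.01 ± 0.10, adjusted p = 1.77e-07).

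**Figure D4:**
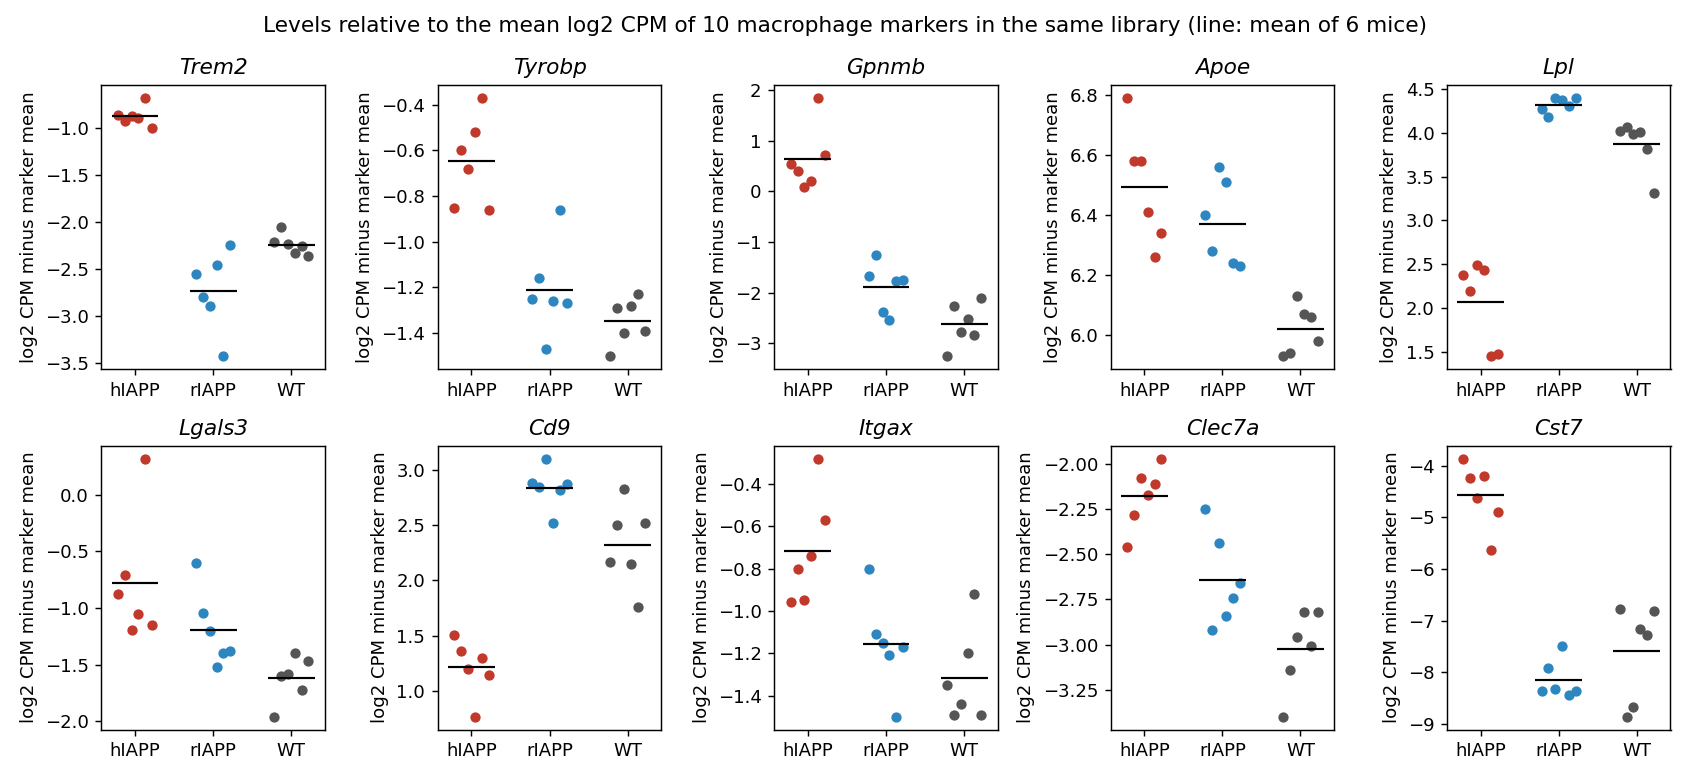
Levels of the 10 genes relative to macrophage markers (log2 CPM of the gene minus the mean log2 CPM of 10 markers in the same library), with 1 point per mouse and a line for the mean of 6 mice per genotype. Trem2, Gpnmb and Cst7 stay well above rIAPP and WT in hIAPP, by 1.38 to 3.58, Apoe, Lgals3, Itgax and Clec7a overlap with rIAPP, and Lpl and Cd9 are lower in hIAPP, where the median over all genes is -1.27 against WT and -1.61 against rIAPP.

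The 10 genes did not vary as 1 block among the hIAPP mice. Library hIAPP 5 was the highest for 6 genes (Trem2, Tyrobp, Gpnmb, Lgals3, Cd9 and Itgax) and hIAPP 6 for 2 (Apoe and Clec7a). Library hIAPP 3 was the lowest for 5. Cst7 did not follow this order, with hIAPP 1 the highest at 0.771 CPM, hIAPP 3 at 0.44 CPM and hIAPP 5 the lowest at 0.398 CPM. Lpl was also lowest in hIAPP 5. The highest hIAPP library was 6.18 times the lowest for Gpnmb and 5.19 times for Lgals3, but 2.08 times for Trem2, 1.94 times for Cst7 and 1.53 times for Apoe. The macrophage marker mean was likewise highest in hIAPP 5 and hIAPP 6. Over the 6 hIAPP libraries, which share their differences in acinar share, Pearson's r with Trem2 (log2 CPM, a description) was 0.9918 for Itgax, 0.9676 for Gpnmb, 0.9618 for Tyrobp, -0.4161 for Cst7 and -0.4464 for Lpl.

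**Figure D5:**
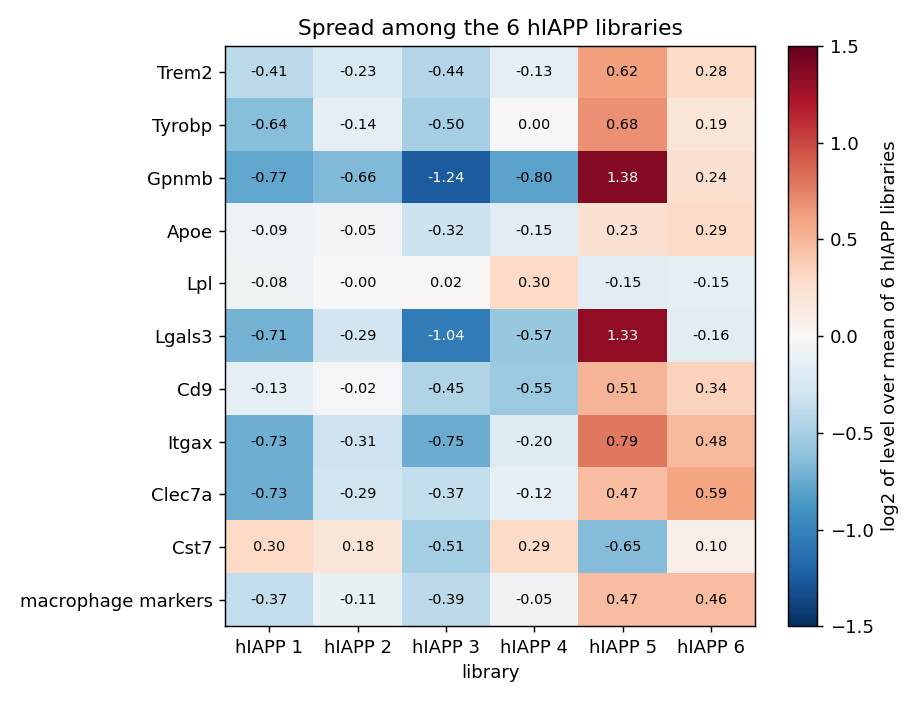
Level of each of the 10 genes in each hIAPP library, as log2 of its CPM over the mean of the 6 hIAPP libraries, with the macrophage marker mean (log2 CPM minus its own mean) in the bottom row. Columns hIAPP 5 and hIAPP 6 are raised for most genes, up to 1.38 for Gpnmb, while Cst7 (-0.65) and Lpl (-0.15) are below their means in hIAPP 5.

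Per kilobase of exon, the order of the 10 genes differed between the genotypes. These levels divide CPM by the length of all annotated exons of a gene, which understates genes with long rare exons. In hIAPP, Apoe (627 CPM per kb) was followed by Cd9 (17.3), Tyrobp (14.7), Lpl (5.92), Lgals3 (5.46), Gpnmb (4.36), Itgax (2.03), Trem2 (1.69), Clec7a (1.3) and Cst7 (0.634). Only Apoe from Cd9, and Tyrobp from Lpl, were separated without overlap of the 6 mice in that order. In rIAPP the order was Apoe (188 CPM per kb), Cd9 (17), Lpl (9.24), Tyrobp (3.14), Lgals3 (1.16), Itgax (0.453), Clec7a (0.291), Gpnmb (0.209), Trem2 (0.149) and Cst7 (0.00342). There Itgax, Clec7a, Gpnmb and Trem2 each overlapped the next of these 4. In WT it was Apoe (187), Cd9 (15.6), Lpl (8.69), Tyrobp (3.62), Lgals3 (1.08), Itgax (0.517), Clec7a (0.285), Trem2 (0.261), Gpnmb (0.159) and Cst7 (0.0231). Cd9 overlapped Lpl, and Clec7a, Trem2 and Gpnmb overlapped in turn. Gpnmb was thus the sixth of the 10 in hIAPP and the ninth in WT.

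Among the 8 genes with a pattern most like that of Trem2 over all 18 libraries were Csf1r (Pearson's r of log2 CPM 0.9833), Mpeg1 (0.9823), Ctss (0.979), Man2b1 (0.9787), Cd84 (0.9784), Ms4a7 (0.9738) and Adgre1 (0.9709). They were ranked among 12915 genes with a mean of at least 1 CPM in hIAPP. These values follow the difference between genotypes, which all 18 libraries share. Mpeg1, which encodes the pore-forming perforin-2 of macrophages, was 67.7 to 170.1 CPM in hIAPP, 17 to 20.8 in rIAPP and 20.6 to 28.7 in WT. Without hIAPP 5 and hIAPP 6, 5 of the 8 were again among the top 8. Among the members, Apoe (0.956), Tyrobp (0.9553) and Itgax (0.9551) were most like Trem2 over 18 libraries, and Cd9 (0.126) and Lpl (-0.859) least. Over the 6 hIAPP libraries alone, the top 4 were Lyn (0.9977), Npl (0.9957), Acp5 (0.9927) and Arpc1b (0.9923).

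Genes of TREM2 and TYROBP signalling rose in part. Of 20 (all of which passed the filter), 13 were higher, 0 lower and 7 not called in hIAPP against WT (8.31% of all genes higher, 7.53% lower). The median log2 fold change of 0.91 was below the 1.40 of the 10 general macrophage markers. Against rIAPP 13 were higher and 1 lower (13.5% and 14.1% of all genes). In rIAPP against WT 3 were higher and 1 lower (14.1% and 12.6% of all genes). Syk, the kinase that TYROBP recruits, was 3.94 to 10.7 CPM in hIAPP, 2.85 to 3.56 in rIAPP and 2.33 to 4.01 in WT, with a log2 fold change of 1.29 ± 0.18 against WT (edgeR adjusted p = 7.61e-05). The membrane proteins of the Ms4a family, whose human counterparts are tied to soluble TREM2, rose more. Ms4a4a rose by 3.55 ± 0.27, Ms4a6d by 2.40 ± 0.23 and Ms4a7 by 2.25 ± 0.18 on the log2 scale against WT (edgeR adjusted p = 3.73e-08, 8.5e-07 and 5.98e-08). Ms4a4a was also higher in rIAPP than in WT, by 1.16 ± 0.26 (edgeR adjusted p = 0.00224). Nfatc1, a transcription factor that acts downstream of TYROBP in osteoclasts, was higher in rIAPP than in WT, at 16 ± 1.91 CPM in rIAPP and 5.34 ± 0.57 in WT libraries (log2 fold change 1.58 ± 0.09, edgeR adjusted p = 9.28e-11).

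Of 30 other lipid-associated macrophage genes, 19 were higher, 1 lower and 10 not called in hIAPP against WT (median log2 fold change 0.67). Over all genes 8.31% were higher and 7.53% lower. Against rIAPP 20 were higher and 4 lower (13.5% and 14.1% of all genes). In rIAPP against WT 4 were higher and 5 lower (14.1% and 12.6% of all genes). Lyz2, the macrophage lysozyme, was 151 to 343 CPM in hIAPP, 10.7 to 15.6 in rIAPP and 9.54 to 13.6 in WT. Cd68, a lysosomal membrane protein, was 7.33 to 28.2 CPM in hIAPP, 1.4 to 2.09 in rIAPP and 1.51 to 2.81 in WT. Ctss, the lysosomal protease cathepsin S, was 70.0 to 152 CPM in hIAPP, 23.2 to 27.8 in rIAPP and 35.7 to 43.3 in WT. None of these 3 overlapped between hIAPP and the other genotypes. The 1 lower gene was Spp1, which encodes osteopontin and is also on the ductal marker list (log2 fold change -0.73 ± 0.11, edgeR adjusted p = 0.00016). Against WT, 4 of the 7 ductal markers were lower and 0 higher in hIAPP, and their part in the Spp1 value was not tested.

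Partners of lipoprotein lipase and apolipoprotein E moved both ways. Of 20, 18 passed the filter, of which 9 were higher, 2 lower and 7 not called in hIAPP against WT (median log2 fold change 0.28). Over all genes 8.31% were higher and 7.53% lower. Against rIAPP 7 were higher and 4 lower (13.5% and 14.1% of all genes). In rIAPP against WT 7 were higher and 4 lower (14.1% and 12.6% of all genes). Apoc2, the cofactor that lipoprotein lipase needs, was 0.598 to 1.83 CPM in hIAPP, 0.0479 to 0.235 in rIAPP and 0.081 to 0.15 in WT (log2 fold change 3.31 ± 0.35 against WT, edgeR adjusted p = 3.08e-06). Apoc1, its neighbour in the same gene cluster, was lower in hIAPP at 0.764 to 1.69 CPM, against 2.37 to 3.2 CPM in WT libraries (log2 fold change -1.28 ± 0.18, edgeR adjusted p = 9.1e-05). Apoc1 was also lower in rIAPP than in WT (-0.61 ± 0.18, edgeR adjusted p = 0.0156). Sel1l, an adaptor of ER quality control that lipoprotein lipase needs to mature, was higher in hIAPP than in WT by 0.57 ± 0.10 (edgeR adjusted p = 0.000822). It was also higher in rIAPP than in WT by 0.38 ± 0.10 (edgeR adjusted p = 0.00952). In hIAPP against rIAPP it was not called (0.20 ± 0.10, edgeR adjusted p = 0.175). In rIAPP against WT the smallest p values were those of the cholesterol exporter Abcg1 (-0.43 ± 0.07, edgeR adjusted p = 4e-05) and of Lmf2, a relative of the lipase maturation factor (0.32 ± 0.06, edgeR adjusted p = 0.000175).

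Of 22 partners of the other members, 21 passed the filter. Of these, 12 were higher, 0 lower and 9 not called in hIAPP against WT (median log2 fold change 0.49). Over all genes 8.31% were higher and 7.53% lower. Against rIAPP 9 were higher and 1 lower (13.5% and 14.1% of all genes). In rIAPP against WT 7 were higher and 1 lower (14.1% and 12.6% of all genes). Itgb2, the integrin chain that pairs with that of Itgax, rose by 1.65 ± 0.19 against WT (edgeR adjusted p = 6.7e-06). Ctsc, the protease cathepsin C whose activity cystatin F limits, rose by 1.02 ± 0.12 (edgeR adjusted p = 6.74e-06). Clec4n (Dectin-2) and Clec4d, C-type lectins related to Clec7a, rose by 2.19 ± 0.20 and 3.92 ± 0.52 (edgeR adjusted p = 4.43e-07 and 3.52e-05), the second from at most 0.0603 CPM in WT. Like Cst7, Clec4d passed the filter on low counts through its hIAPP libraries, so it adds little to the count of higher genes. Fcer1g, an adaptor like Tyrobp, was 6.15 to 10.6 CPM in hIAPP, 1.43 to 2.35 in rIAPP and 3.11 to 4.5 in WT, so that the 3 genotypes did not overlap. Its log2 fold change in rIAPP against WT was -0.99 ± 0.13 (edgeR adjusted p = 1.02e-05). Cd81, a tetraspanin that associates with Cd9, was 221 ± 33.8 CPM in rIAPP and 94.3 ± 7.89 in WT libraries (log2 fold change 1.23 ± 0.09, edgeR adjusted p = 4.65e-09).

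Markers of other cell types were read beside these genes. Itgax is also a dendritic cell gene, and of 8 dendritic cell markers 7 passed the filter, with 0 called in hIAPP against WT by edgeR and 0 at an unadjusted p under 0.05. In hIAPP against rIAPP 0 were higher and 2 lower, and in rIAPP against WT 3 were higher and 0 lower (edgeR). The summed level of the 8 was 6.93 to 9.35 CPM in hIAPP, 8.58 to 13 in rIAPP and 5.21 to 9.53 in WT. Of 8 neutrophil markers 0 passed the filter, with a summed level of 0.0577 to 0.998 CPM in hIAPP, 0.0433 to 0.899 in rIAPP and 0.0249 to 0.237 in WT, and Elane at 0 in every library. Of 6 monocyte markers, 1 was higher (Fn1) and 1 lower (Ccr2) in hIAPP than in WT, with a summed level of 56 to 95.2 CPM in hIAPP, 66.3 to 74.2 in rIAPP and 52.3 to 66.7 in WT. Of 10 T and NK cell markers 3 passed the filter, and the summed level was 0.346 to 0.61 CPM in hIAPP, 0.363 to 0.723 in rIAPP and 0.388 to 0.613 in WT. Against WT, 11 of 13 acinar markers were higher in hIAPP and 0 lower, and against rIAPP 0 were higher and 1 lower. Their summed level was 2523 to 18137 CPM in hIAPP, 4116 to 18275 in rIAPP and 933 to 3904 in WT. Of 8 stellate and mesenchymal markers, hIAPP islets had 6 higher and 0 lower against WT (median log2 fold change 0.77), and 2 higher and 2 lower against rIAPP. Their summed level was 1046 to 1932 CPM in hIAPP, 1364 to 2233 in rIAPP and 781 to 1109.6 in WT. Of 8 Schwann and glial markers, hIAPP islets had 5 higher and 0 lower against WT, with a summed level of 34.4 to 52.9 CPM in hIAPP, 35.4 to 41.5 in rIAPP and 27.5 to 35.8 in WT. All 7 endothelial markers and 6 of the 8 stellate and mesenchymal markers were higher in rIAPP than in WT. The part of these cells in the values of the 10 genes was not tested.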

How the data were processed

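The authors deposited 1 table of estimated counts per gene symbol for 18 islet libraries, not normalised. The submitters' processing notes list the tools STAR and HTSeq and the builds GRCm38 and mm10, with no versions. Per the labels' protocols, ribosomal RNA was depleted with Ribo-Zero and TruSeq libraries were made. Not given in the sources used here are the annotation, the strand setting and the step behind the fractional values. Of the values above 0, 39.2% were not whole, and all were rounded to whole numbers. The main test was the quasi-likelihood test of edgeR 4.0.16 (R 4.3.3), in 1 fit of the 18 libraries with a mean per genotype. Library sizes were scaled by TMM, and filterByExpr left 20244 genes. Tests were two-sided, adjusted by Benjamini-Hochberg over all genes tested, and called at an adjusted p under 0.05. The p-values measure the spread between mice, and litters and batches were not used. CPM are counts scaled to TMM-adjusted library totals (110 to 166 M counts per library), and counting intervals cover counting error only. Levels relative to macrophage markers were tested with limma 3.58.1 on log2 CPM with a prior count of 2. Positions and exon lengths came from GENCODE M21. The scripts were tested on simulated data.

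The 10 genes, the lists, the marker lists and the alternatives were chosen with earlier results of these data known. Beyond the 10, the genes named are the 4 called genes with the smallest p in hIAPP against WT and the 2 in rIAPP against WT of each list, and the 8 and 4 genes most like Trem2. Some genes that this rule names are not reported here. Spp1 as the 1 lower gene of its list was singled out after its value was seen. Alternatives were DESeq2 1.42.0, limma-voom, other scaling, filters and thresholds, fits of 2 genotypes, an acinar covariate, other denominators, and leaving out libraries. Figures were drawn with matplotlib 3.10.9.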

Additional observations from a re-analysis of the deposited data

Results flagged for a closer look

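Within a genotype, 1 library lay far from the other 5 by Dixon's test in 4 of the 30 sets of 6 libraries examined (10 genes in 3 genotypes), where chance flags about 1 in 20. Gpnmb was 73.9 CPM in hIAPP 5, and the next hIAPP library was at 33.6 CPM. Lgals3 was 25.5 CPM in the same library, and the next was at 9.09 CPM. Lpl was 76.6 CPM in hIAPP 4, and the next hIAPP library was at 63.1 CPM. Itgax was 3.19 CPM in WT 5, and the next WT library was at 2.5 CPM, all below the lowest hIAPP library at 5.79 CPM.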

How the results depend on the processing

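The counts of called genes in hIAPP against WT and against rIAPP were 9 in every run that left out 1 library, and the fold changes of the 10 genes in these comparisons kept their side of the threshold in all 598 alternatives. Values of Cd9, which was not called, changed sign in 7 of these. No called value changed sign. In rIAPP against WT, 1 of the 10 genes was called in place of 2 with limma-voom, with every gene that had a count, with a mean of at least 1 CPM, with only the 2 genotypes compared, at an adjusted p under 0.01 and with the acinar covariate, and 1 to 2 were called without 1 library. Each time Trem2 was still called and Cst7 was not called or had no value. Cst7 could not be fitted at a mean of at least 1 CPM, or, against WT, with the rIAPP and WT libraries alone. Its log2 value for hIAPP against WT was 5.60 with limma-voom.

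Relative to macrophage markers, the genes called in hIAPP against rIAPP were 5 in place of 8 with C1qa, C1qb and C1qc as denominator, and 8 to 9 without 1 library. In rIAPP against WT they were 8 with that denominator and 1 with Ptprc, Laptm5 and Spi1 in place of 5, and 0 to 6 without 1 library. C1qa, C1qb and C1qc were themselves lower in rIAPP than in WT (edgeR log2 fold change -1.01, -0.54 and -0.51). With the main denominator 28.4% of all genes were called higher and 2.47% lower. The shares with the other denominators are not given here, so these counts cannot be set against them. Of the 8 genes most like Trem2, 5 remained without hIAPP 5 and hIAPP 6. The cause of these shifts was not tested. No paired analysis was possible because the mouse numbers in the labels differ between genotypes and replicate numbers follow only the order of the samples. Cst7 in rIAPP and WT, at 0 to 6 counts per library, is limited by depth.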

Other observations

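Of 6 markers of osteoclasts, bone-resorbing cells of the macrophage lineage, 4 passed the filter. In hIAPP against WT 2 of these were higher, 0 lower and 2 not called (edgeR), and in hIAPP against rIAPP 1 was higher and 0 lower. Acp5, which encodes a lysosomal acid phosphatase, was 4.31 to 18.6 CPM in hIAPP islets, 0.602 to 1.81 in rIAPP and 1.05 to 1.48 in WT libraries (log2 fold change 2.75 ± 0.32 against WT, edgeR adjusted p = 9.89e-06). Ctsk, which encodes the protease cathepsin K, was higher in hIAPP than in WT by 0.96 ± 0.15 (edgeR adjusted p = 0.000216) and higher in rIAPP than in WT by 1.15 ± 0.15 (edgeR adjusted p = 6.79e-06), and was not called in hIAPP against rIAPP (-0.19 ± 0.15, edgeR adjusted p = 0.383).

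Markers of resident macrophages did not move as 1 group. In hIAPP against WT, 3 of 8 were called higher and 0 lower by edgeR, in hIAPP against rIAPP 5 higher and 2 lower, and in rIAPP against WT 4 higher and 3 lower. Folr2, a folate receptor of resident macrophages, was 0.127 to 0.756 CPM in hIAPP, 0.022 to 0.123 in rIAPP and at most 0.0196 in WT libraries. It was called higher in hIAPP and in rIAPP than in WT (edgeR adjusted p = 4.03e-05 and 0.0057). Like Cst7, Folr2 passed the filter on low counts through its hIAPP libraries, which favours a call as higher there. It thus adds little to the 3 called higher in hIAPP against WT. Mertk, a receptor for the uptake of dying cells, was 9.02 to 20.5 CPM in hIAPP, 4.66 to 6.69 in rIAPP and 4.1 to 6.69 in WT libraries (log2 fold change 1.28 ± 0.17 against WT, edgeR adjusted p = 4.72e-05). Fcgr1, a high-affinity receptor for antibodies, was higher in hIAPP than in WT by 1.11 ± 0.17 (edgeR adjusted p = 0.000187) and lower in rIAPP than in WT (-0.69 ± 0.17, edgeR adjusted p = 0.00484). Lyve1, a hyaluronan receptor of some resident macrophages and of lymphatic vessels, was 17.7 to 36.8 CPM in hIAPP, 6.56 to 12.4 in rIAPP and 18.5 to 38.4 in WT. It was lower in rIAPP than in WT libraries (log2 fold change -1.48 ± 0.19, edgeR adjusted p = 4.68e-06) and was not called in hIAPP against WT (0.28 ± 0.18, edgeR adjusted p = 0.342). Mrc1, the mannose receptor of tissue macrophages, was higher in rIAPP than in WT by 0.81 ± 0.14 (edgeR adjusted p = 0.000125).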
